A study of Mus musculus with 8 samples.

Results

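The heat shock proteins and chaperones of RAW264.7 cells, an established mouse line with macrophage traits, were examined after exposure to recombinant FSTL1. Members were chosen by gene symbol alone: those that begin with Hsp90, or with Hspa, Hspb, Hspd, Hspe, Hsph, Dnaja, Dnajb, Dnajc or Cct followed by a number, leaving out symbols that contain -ps. This gave 81 of the 22013 rows of the count table, and 64 of them had enough reads to be tested, among 10748 tested genes. The members were assigned to compartments from general knowledge of their proteins: 54 to the cytosol and nucleus, 13 to the endoplasmic reticulum (ER), 8 to mitochondria and 6 to none. Genes that the symbols miss or that work with the members were listed as well, in 4 lists: further chaperones, co-chaperones with heat shock factors, ER folding and stress response genes, and mitochondrial protein quality genes.

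The 8 libraries of polyadenylated RNA came from 4 PBS control samples and 4 samples given rFSTL1 at 100 ng/mL for 24 h. FSTL1, follistatin-like 1, is a secreted glycoprotein. No other agent or genotype is named for either group, all samples came from this single cell line, and the labels do not say whether they were separate cultures, so that the tests measure the spread between libraries, which may be technical.

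Chaperones bind unfolded or newly made proteins and help them reach or keep their folded form. HSP70 proteins, encoded by the Hspa genes, cycle on and off exposed stretches of a client protein under the control of ATP. J-domain proteins, encoded by the Dnaj genes, bring clients to HSP70 and stimulate its ATPase, while HSP110 proteins exchange its nucleotide. HSP90 acts later on many kinases and receptors, the CCT ring and the mitochondrial HSP60 with its lid HSP10 enclose their clients, and small heat shock proteins hold unfolded proteins without ATP. Heat shock factor 1 drives the cytosolic set through heat shock elements, and unfolded protein in the ER drives the ER set through its own elements.

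The libraries held between 15062026 and 20234472 counts, and all 12 pairs of replicates differed by more than counting noise. Over all tested genes, the ratio of chi-square to degrees of freedom was 3.03 to 4.21 between PBS libraries. Between rFSTL1 libraries it was 4.52 to 19.1, highest for replicates 2 and 4. All 8 macrophage markers were present, at a summed 4550 to 4692 CPM (counts per 1000000 of the TMM-scaled library) in PBS and 4609 to 4745 CPM in rFSTL1. The 10 markers of T, B, endothelial, epithelial, liver and mesenchymal cells summed to 0.526 to 1.28 CPM in PBS and 0.616 to 1.42 CPM in rFSTL1, with 5 of them at 0, among them the T cell markers Cd3e and Cd3d and the epithelial marker Epcam.

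Of the 64 tested chaperone genes, 1 rose and 0 fell with an adjusted p under 0.05, by the quasi-likelihood test of edgeR and the Benjamini-Hochberg method over all genes. The gene that rose was Hspa8, the constitutive cytosolic HSP70. Among all tested genes 0.344% passed this threshold in either direction, and 0.326% passed it as higher. DESeq2 and limma's voom, which passed 1.81% and 4.22% of all genes, each also called 1 member, again Hspa8. Apart from Hspa8, the chaperones had small differences. The log2 fold change was within 0.1 of 0 in 45 of the 64 members (70.3%) and in 61.4% of all tested genes. Its median was -0.01 over the members and 0.01 over all tested genes. It was above 0 in 29 members and below 0 in 35.

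**Figure D1:**
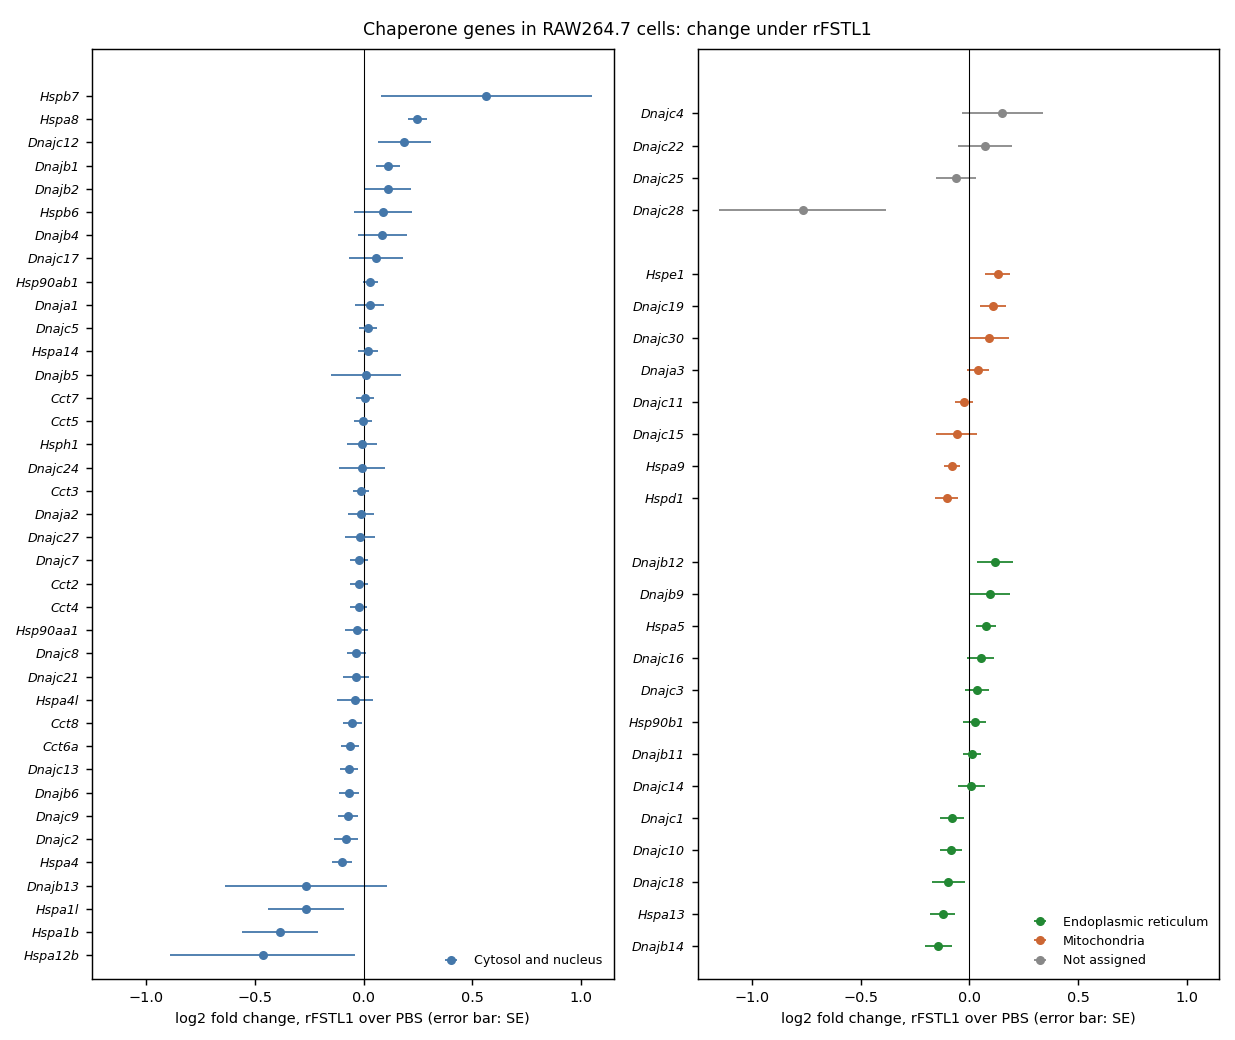
Log2 fold change (rFSTL1 over PBS) of 63 of the tested chaperone genes, with its standard error, by compartment, 4 libraries in each group. Most points sit within 0.1 of 0. The widest bars belong to genes near the detection limit such as Hspb7, Hspa12b and Dnajc28, and Hspa8 has the narrow bar at 0.25.

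Without adjustment, 3 members had a higher level at p under 0.05 (among them Hspa8 and Hspe1), where 8.28% of all genes did, and 5 had a lower one (Hspa4, Hspa1b, Hspa9, Hspa13 and Dnajb14), where 7.56% of all genes did. Together these 8 were 12.5% of the tested members, against 15.8% of all tested genes. The count depended on single libraries: it was 2, 3, 4 and 4 without PBS replicate 1, 2, 3 and 4, and 3 and 5 without rFSTL1 replicate 3 and 4, where 10.2% to 14.8% of all genes passed. The 4 rFSTL1 values lay entirely above the 4 PBS values in 1 member, Hspa8, against 4.63% of all genes. They lay entirely below in 1 member, Hspa9, the mitochondrial HSP70, against 3.53% of all genes. With library totals alone in place of TMM scaling, 6 members (9.38%) had groups that did not overlap, against 8.56% of all genes. The added ones were Hspa4, Hspa13 and Dnajc9 as lower and Dnajc19 as higher. In both measures the members' share was below or close to that of the whole table.

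**Figure D2:**
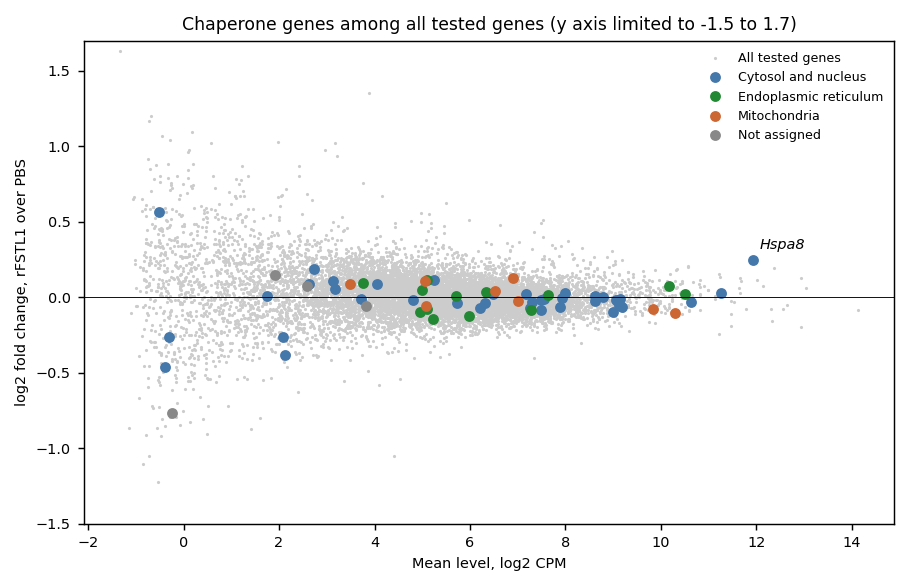
Log2 fold change of every tested gene (grey) against its mean level in log2 CPM, with 63 tested chaperone genes coloured by compartment and 2 other genes outside the limits of the axis. Hspa8 is the most abundant chaperone and the only one that passed the adjusted threshold. The other abundant chaperones lie close to 0.

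The order of chaperone levels was set by a few housekeeping members. Expressed as CPM per kilobase of transcript, which allows genes to be compared, Hspa8 led with 1479 ± 26.7 (SD, n = 4) in PBS. It was followed by Hsp90ab1, the constitutive cytosolic HSP90, at 955 ± 15.5. Next came Hspd1 (mitochondrial HSP60) at 534 ± 11.7, Hsp90b1 (the ER HSP90, GRP94) at 508 ± 7.03 and Hsp90aa1 (the inducible cytosolic HSP90) at 490 ± 15.6 CPM per kilobase. The bands of mean ± SD of Hsp90b1 and Hsp90aa1 overlapped. Hspa9 and Hspa5, the HSP70 proteins of mitochondria and of the ER, had nearly the same level per kilobase (306 ± 4.47 and 303 ± 12.3). In all, 17 members exceeded 100 CPM per kilobase and 24 of the tested members were under 10.

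**Figure D3:**
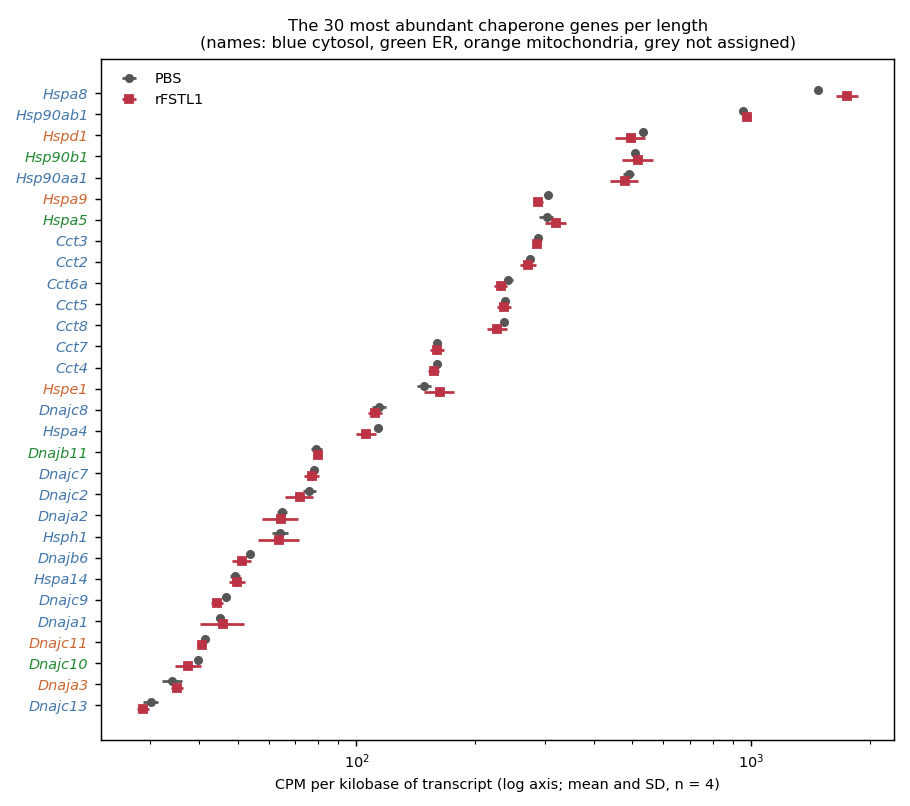
Level of the 30 most abundant chaperone genes in CPM per kilobase of transcript (log axis), mean and SD of 4 libraries in PBS (grey) and rFSTL1 (red). The order runs over all 3 compartments, and the widest gap between the PBS and rFSTL1 symbols is that of Hspa8, at 1479 and 1756, while Hspa9 is at 306 and 289.

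Hspa8, whose protein HSC70 folds new proteins, uncoats clathrin vesicles and feeds chaperone-mediated autophagy, had 3629, 3482, 3539 and 3509 CPM in PBS replicates 1 to 4. In rFSTL1 replicates 1 to 4 it had 4504, 4371, 3929 and 4009 CPM. All rFSTL1 libraries were above all PBS libraries, and rFSTL1 replicates 1 and 2 were higher than replicates 3 and 4. Hspa8 rose by a log2 fold change of 0.25 (SE 0.04, 1.19-fold, adjusted p = 0.0252 by edgeR's quasi-likelihood test). The exact two-sided permutation p was 0.0286, the smallest that the 70 assignments of 8 libraries allow. Its share of the CPM of all tested members was 17.9% ± 0.304 in PBS and 20.8% ± 0.505 in rFSTL1. The call did not hold without any one PBS library: the edgeR adjusted p was 0.0544, 0.136, 0.115 and 0.141 without PBS replicate 1, 2, 3 and 4. It held without each rFSTL1 library, with an edgeR adjusted p of 0.00602 to 0.0433. The fold change stayed between 0.21 and 0.28 in all 8 of these fits. Of the 50-base windows of its transcripts, 74.8% also occur in other annotated genes, most of them in the annotated copy Gm15459 (70.0%), so that reads of the gene and its copies could not be told apart there.

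Hspa14, a ribosome-associated HSP70 of the cytosol, had a log2 fold change of 0.02 (SE 0.05) at 49.2 CPM per kilobase in PBS. The HSP70 genes of the stress-inducible locus were scarce. Hspa1b, the stress-inducible HSP70, had 4.80, 3.87, 4.69 and 6.44 CPM in PBS and 3.67, 4.56, 3.30 and 3.59 CPM in rFSTL1. Of the rFSTL1 libraries, 3 were below all PBS libraries and replicate 2 was above PBS replicate 2. The log2 fold change was -0.38 (SE 0.17, adjusted p = 0.296 by edgeR's quasi-likelihood test), and -0.25 without PBS replicate 4. Its near-identical neighbour Hspa1a had 3 counts over all libraries together, and both genes had decimals in PBS replicates 1 and 2 that added up to whole numbers (78.75 and 1.25, and 69.63 and 2.37). Summed, the pair had a log2 fold change of -0.40 (SE 0.17) with an adjusted p of 0.281 in the edgeR fit. Per kilobase, Hspa1b stood at 1.77 CPM in PBS, against 1479 for Hspa8. Hspa1l, the third gene of that locus, differed by -0.26 (SE 0.18) on the log2 scale, and 71.4% of its windows also occur in other genes.

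The nucleotide exchange factors of the HSP110 class had log2 fold changes at or below 0. Hspa4 (APG-2) had 530, 540, 510 and 519 CPM in PBS and 508, 514, 482 and 452 CPM in rFSTL1. The groups overlapped through rFSTL1 replicate 2, which exceeded PBS replicate 3, and the log2 fold change was -0.10 (SE 0.05, adjusted p = 0.292 by edgeR's quasi-likelihood test), and -0.06 without rFSTL1 replicate 4. Hsph1 (HSP105), a heat-inducible gene, had 249, 242, 228 and 255 CPM in PBS and 261, 273, 224 and 213 CPM in rFSTL1. Its rFSTL1 libraries fell on both sides of the PBS libraries, and the log2 fold change was -0.01 (SE 0.07).

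The cytosolic HSP90 genes had log2 fold changes of 0.03 (SE 0.04) for Hsp90ab1 and -0.03 (SE 0.05) for Hsp90aa1. Hsp90aa1 had 1587, 1681, 1594 and 1564 CPM in PBS and 1693, 1663, 1504 and 1424 CPM in rFSTL1, again with replicates 1 and 2 above replicates 3 and 4. Both heat-inducible J-domain partners of HSP70 were at similar levels in the groups. Dnajb1 (HSP40) had 38.5, 35.2, 36.7 and 36.2 CPM in PBS and 40.8, 41.2, 37.6 and 38.9 CPM in rFSTL1, with a log2 fold change of 0.11 (SE 0.06, adjusted p = 0.347 by edgeR's quasi-likelihood test). Dnaja1, a farnesylated J-domain protein, had 253, 258, 255 and 247 CPM in PBS and 272, 297, 240 and 223 CPM in rFSTL1, with a log2 fold change of 0.03 (SE 0.07). The direction of Hsph1, Hsp90aa1 and Dnaja1 depended on single libraries or on the method.

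The CCT ring folds actin and tubulin. Its 7 tested members had log2 fold changes of -0.06 (Cct6a) to 0.01 (Cct7) with a median of -0.02, and none had an unadjusted p under 0.05, against 15.8% of all genes. The 7 further chaperones that the symbols miss had a median of -0.01 with none at an unadjusted p under 0.05. Among them Tcp1, the first CCT subunit, had a log2 fold change of -0.04 (SE 0.04). The levels of the 7 tested Cct genes in PBS lay between 160 and 288 CPM per kilobase. Of the J-domain genes, the 3 tested of class A had a median log2 fold change of 0.03, the 10 of class B 0.05 and the 25 of class C -0.02. Within classes A and C no gene had an unadjusted p under 0.05, and in class B 1 did, Dnajb14. The 8 tested HSP70 genes had a median of -0.10. Of these, 4 (50%) had an unadjusted p under 0.05, Hspa8 as higher and Hspa1b, Hspa9 and Hspa13 as lower, against 15.8% of all genes. Of the small heat shock proteins, 2 of 7 could be tested, Hspb6 and Hspb7. Hspb7 had 0.97, 0.94, 0.15 and 0.20 CPM in PBS and 0.53, 1.17, 0.89 and 0.72 CPM in rFSTL1. With so few reads the 0.56 log2 fold change had a standard error of 0.49.

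Heat shock elements were sought in the promoters. A promoter was taken as the 250 bases before to 50 bases after a RefSeq start (GRCm38.p6), and 65 members had such a window. An element of 3 units, GAANNTTCNNGAA on either strand, occurred in 198 of 32851 windows (0.603%) and in 6 of the 84 windows of members (7.14%). These belonged to 4 genes: Dnajb6, Hspd1, Hspe1 and Hsph1. The windows of Dnajb6 overlap and hold the same match, as do those of Hsph1, and Hspd1 and Hspe1 share their matches. The window share therefore counts single sites more than once. No window was listed for Hspa8, Hsp90aa1 or Hsp90ab1. The windows of Hspe1 (chr1:55087898-55088197, plus strand) and of Hsph1 (chr5:149636287-149636586, minus strand) are shown, the first because it covers the stretch it shares with Hspd1 and the second as that of the heat-inducible HSP110. Capitals mark the element, of which Hspe1 has 2 overlapping matches that begin 89 and 84 bases before the start, while that of Hsph1 begins 36 bases after the start.
Hspe1: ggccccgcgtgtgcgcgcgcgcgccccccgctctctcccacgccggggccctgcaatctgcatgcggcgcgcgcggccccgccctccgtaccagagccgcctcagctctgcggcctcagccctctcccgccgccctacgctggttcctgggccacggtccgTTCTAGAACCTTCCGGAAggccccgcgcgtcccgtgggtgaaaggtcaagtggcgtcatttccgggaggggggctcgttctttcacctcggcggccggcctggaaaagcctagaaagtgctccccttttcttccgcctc
Hsph1: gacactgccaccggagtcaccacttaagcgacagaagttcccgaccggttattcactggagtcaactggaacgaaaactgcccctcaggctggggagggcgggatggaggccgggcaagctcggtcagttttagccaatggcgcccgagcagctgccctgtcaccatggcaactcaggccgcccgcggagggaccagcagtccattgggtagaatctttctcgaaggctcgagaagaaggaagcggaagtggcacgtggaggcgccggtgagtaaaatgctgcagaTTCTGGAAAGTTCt
The log2 fold changes of these 4 genes were -0.07 (Dnajb6), -0.10 (Hspd1), 0.13 (Hspe1) and -0.01 (Hsph1), on both sides of 0.

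The 31 co-chaperones and heat shock factors, all of them tested, had a median log2 fold change of 0.04, with 18 above 0 and 13 below, and 0 passed the adjusted threshold in the edgeR fit. Without adjustment, 3 (9.68%) were higher at p under 0.05 and 0 lower, close to the 8.28% of all genes as higher and under the 7.56% as lower. These were Bag3, an HSP70 exchange factor of selective autophagy (0.20, SE 0.07, adjusted p = 0.178 by edgeR's quasi-likelihood test), Hsf1, the heat shock factor itself (0.13, SE 0.06, edgeR adjusted p = 0.268), and Pfdn2, a subunit of prefoldin, which passes clients to CCT (0.18). Bag3 had 40.7, 37.9, 40.9 and 39.0 CPM in PBS and 40.6, 44.0, 47.7 and 49.7 CPM in rFSTL1. Its rFSTL1 replicate 1 lay within the PBS range, and voom called it while edgeR and DESeq2 did not.

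In the ER, none of the 13 members passed the adjusted threshold. Their log2 fold changes ran from -0.14 (Dnajb14) to 0.12 (Dnajb12), with a median of 0.01, and 8 were above 0. The summed level of the 13 was 3289 ± 67.4 CPM in PBS and 3359 ± 228 CPM in rFSTL1, with overlapping ranges. Hspa5 (BiP, also GRP78), the HSP70 that gates the ER's stress sensors, had 1146, 1137, 1126 and 1047 CPM in PBS and 1254, 1209, 1133 and 1099 CPM in rFSTL1. Its rFSTL1 replicates 1 and 2 exceeded all PBS libraries and replicates 3 and 4 did not, and its log2 fold change was 0.08 (SE 0.05, adjusted p = 0.447 by edgeR's quasi-likelihood test), and 0.04 without either rFSTL1 replicate 1 or PBS replicate 4. Hsp90b1 was split in the same way, with 1434, 1458, 1438 and 1410 CPM in PBS and 1554, 1587, 1377 and 1317 CPM in rFSTL1. Its rFSTL1 libraries lay outside the PBS range on both sides, and the log2 fold change was 0.02 (SE 0.05).

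The J-domain partners of BiP had small differences: log2 fold changes of 0.09 (SE 0.09) for Dnajb9 (ERdj4), 0.01 (SE 0.04) for Dnajb11 (ERdj3) and 0.03 (SE 0.06) for Dnajc3 (p58IPK). That of Dnajb9 was 0.03 without either PBS replicate 1 or rFSTL1 replicate 1. Hspa13, an HSP70-like microsomal protein, had 63.0, 70.2, 66.3 and 62.1 CPM in PBS and 61.7, 62.7, 61.1 and 55.1 CPM in rFSTL1. The groups overlapped by 1 library on each side, and the log2 fold change was -0.12 (SE 0.06, adjusted p = 0.306 by edgeR's quasi-likelihood test). Dnajb14, a membrane J-domain protein of the ER, had 40.0, 39.4, 37.1 and 39.9 CPM in PBS and 37.5, 32.6, 33.9 and 37.4 CPM in rFSTL1. Here only PBS replicate 3 fell within the rFSTL1 range, and the log2 fold change was -0.14 (SE 0.06, edgeR adjusted p = 0.277).

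The ER stress response element, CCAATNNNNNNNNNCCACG on either strand, occurred in 39 of the 32851 windows (0.119%) and in those of 3 members, Hspa5, Hsp90b1 and Dnajc3 (3 of 84 windows, 3.57%). The windows of the 2 most abundant of the ER members are shown, with the element in capitals: Hspa5 at chr2:34771840-34772139 (plus strand) and Hsp90b1, with 2 matches, at chr10:86705395-86705694 (minus strand). The element begins 65 bases before the start of Hspa5 and 212 and 107 bases before that of Hsp90b1.
Hspa5: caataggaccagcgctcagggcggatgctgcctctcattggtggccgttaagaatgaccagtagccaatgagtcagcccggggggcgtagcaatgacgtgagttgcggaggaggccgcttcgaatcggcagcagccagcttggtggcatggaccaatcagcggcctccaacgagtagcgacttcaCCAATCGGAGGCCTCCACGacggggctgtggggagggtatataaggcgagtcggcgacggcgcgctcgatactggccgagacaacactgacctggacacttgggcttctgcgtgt
Hsp90b1: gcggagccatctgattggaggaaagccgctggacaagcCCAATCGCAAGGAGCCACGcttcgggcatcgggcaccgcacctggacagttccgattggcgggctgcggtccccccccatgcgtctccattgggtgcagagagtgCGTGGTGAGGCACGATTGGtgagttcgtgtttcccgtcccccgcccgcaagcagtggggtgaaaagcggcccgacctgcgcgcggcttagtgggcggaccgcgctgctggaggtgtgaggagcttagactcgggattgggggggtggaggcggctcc
The 3 genes with the element had log2 fold changes of 0.08, 0.02 and 0.03, each within 2 standard errors of 0, and those of Hsp90b1 and Dnajc3 turned below 0 without rFSTL1 replicate 1 (both -0.01) or 2 (-0.03 and -0.0027).

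The ER folding and stress response genes that are not members lay mostly above 0. Of the 24, all tested, 18 were above 0 with a median log2 fold change of 0.05, and 8 (33.3%) had an unadjusted p under 0.05, all of them higher, against 8.28% of all genes as higher. In 7 (29.2%) the groups did not overlap, all higher in rFSTL1, against 4.63% of all genes. This list, like the other lists, was chosen with earlier results of these data known, so its shares are not an independent test. None passed the adjusted threshold in the edgeR fit, whereas DESeq2 called 3 and voom 4 (1.81% and 4.22% of all genes). In other edgeR fits Sdf2l1 was called with upper-quartile scaling, and both Sdf2l1 and Syvn1 were called with all genes of at least 1 count and without rFSTL1 replicate 2. PBS replicate 4 was the lowest PBS library in 6 of the 8 genes, and without it 5 of the 24 were higher at an unadjusted p under 0.05, against 5.51% of all genes. Sdf2l1, a partner of ERdj3 and BiP, had 49.7, 56.2, 59.3 and 48.8 CPM in PBS and 64.1, 64.5, 66.8 and 66.5 CPM in rFSTL1. All its rFSTL1 libraries were above all PBS libraries, and the log2 fold change was 0.29 (SE 0.06, adjusted p = 0.0585 by edgeR's quasi-likelihood test and 0.00487 by DESeq2). Syvn1, the ubiquitin ligase HRD1 of ER-associated degradation, had a log2 fold change of 0.28 (SE 0.06) with an adjusted p of 0.0729 by edgeR and 0.0159 by DESeq2. P4hb, a protein disulfide isomerase, had 1287, 1223, 1227 and 1080 CPM in PBS and 1412, 1372, 1345 and 1361 CPM in rFSTL1. Its groups did not overlap, and the log2 fold change was 0.19 (SE 0.05) with an adjusted p of 0.1003 by edgeR and 0.0222 by DESeq2. Without PBS replicate 4 its log2 fold change was 0.13.

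The others of the 8 were Ppp1r15a (GADD34, which restores translation, 0.23), Manf (0.17, and 0.11 without rFSTL1 replicate 2), Herpud1 (an ER degradation factor, 0.17), Creld2 (0.16, and 0.09 without PBS replicate 4) and Atf4 (the transcription factor of the integrated stress response, 0.11). Voom also called Ppp1r15a. The lectin chaperones of the list did not share one direction: Calr had a log2 fold change of 0.06 (SE 0.04) and Canx one of -0.09 (SE 0.05). Hyou1, the ER's HSP110, had 518, 516, 524 and 509 CPM in PBS and 548, 535, 531 and 566 CPM in rFSTL1. All rFSTL1 values were above all PBS values, but the log2 fold change of 0.08 (SE 0.04) did not pass (adjusted p = 0.335 by edgeR's quasi-likelihood test).

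**Figure D4:**
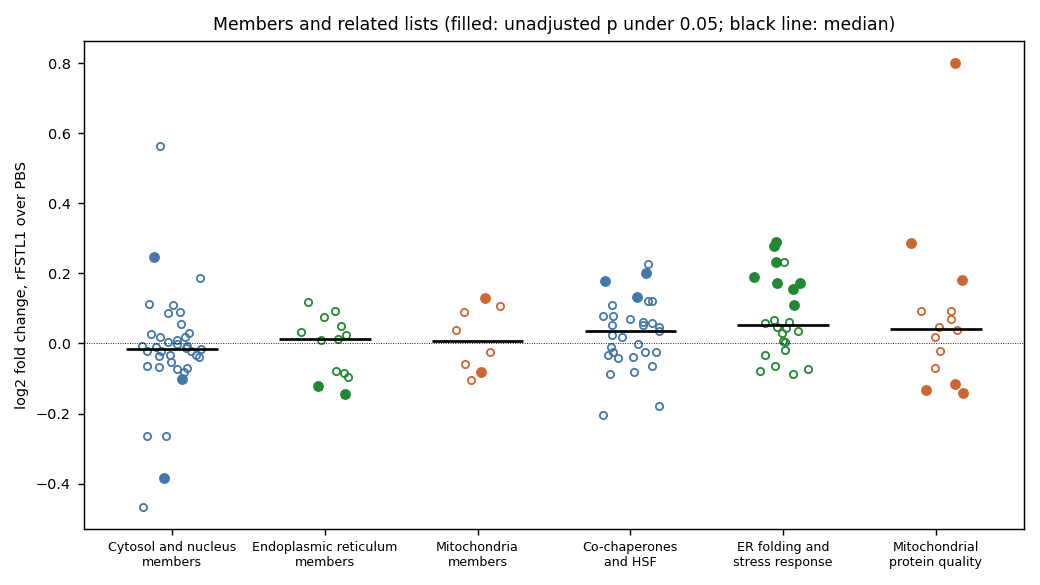
Log2 fold change of each tested gene in the 3 compartments of members and in 3 related lists, with the median of each list as a black line and genes with an unadjusted p under 0.05 filled. The filled points of the ER folding and stress response list are all above 0 (8 of 24, 33.3%). Those of the ER members are both below 0 (2 of 13, 15.4%), a share near the 15.8% of all tested genes.

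In mitochondria, none of the 8 members passed the adjusted threshold, and their log2 fold changes lay on both sides of 0 (4 and 4, median 0.01). The summed level of the 8 was 2638 ± 42.7 CPM in PBS and 2510 ± 134 CPM in rFSTL1, with overlapping ranges. Hspa9 (mortalin), the HSP70 of the matrix and motor of protein import, had 947, 930, 914 and 937 CPM in PBS and 914, 878, 877 and 858 CPM in rFSTL1. All rFSTL1 values were below all PBS values, although PBS replicate 3 and rFSTL1 replicate 1 nearly touched. The log2 fold change was -0.08 (SE 0.04) with an adjusted p of 0.300 by edgeR's quasi-likelihood test and an exact two-sided permutation p of 0.0286.

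Hspd1 and Hspe1 encode HSP60 and HSP10, the barrel and lid of the matrix chaperonin, and lie head to head, so that their promoter windows cover the same stretch on opposite strands. Hspd1 had 1292, 1316, 1253 and 1310 CPM in PBS and 1291, 1284, 1165 and 1070 CPM in rFSTL1. Its rFSTL1 replicates 1 and 2 lay within the PBS range and replicates 3 and 4 below it, with a log2 fold change of -0.10 (SE 0.05, adjusted p = 0.345 by edgeR's quasi-likelihood test), and -0.05 without rFSTL1 replicate 4. Hspe1 had 112, 122, 112 and 113 CPM in PBS and 121, 141, 126 and 115 CPM in rFSTL1. PBS replicate 2 lay within the rFSTL1 range, and the log2 fold change was 0.13 (SE 0.06, edgeR adjusted p = 0.287), and 0.06 without rFSTL1 replicate 2. The log2 ratio of Hspe1 to Hspd1 CPM was -3.49 ± 0.04 in PBS and -3.26 ± 0.11 in rFSTL1 (SD, n = 4), higher in all 4 rFSTL1 libraries than in any PBS library (difference 0.24, exact two-sided permutation p = 0.0286). This ratio was chosen after the values were seen. Of the 50-base windows of the transcripts, 44.8% in Hspe1 and 44.8% in Hspd1 also occur in other annotated genes, where reads could not be told apart.

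Of the 14 mitochondrial protein quality genes, 3 had an unadjusted p under 0.05 as higher and 3 as lower. Together they were 42.9% of the list, against 15.8% of all tested genes (8.28% as higher and 7.56% as lower). In the edgeR fit 0 passed the adjusted threshold. The higher ones were Atf5, a transcription factor of the mitochondrial stress response (0.29, SE 0.08, adjusted p = 0.137 by edgeR's quasi-likelihood test), Clpp, a matrix protease (0.18, and 0.11 without PBS replicate 2), and Pam16, a subunit of the import motor (0.80, SE 0.29, edgeR adjusted p = 0.216). Voom called Pam16, and DESeq2 gave it no adjusted p. Its level was low, with 3.64, 6.64, 3.55 and 1.64 CPM in PBS and 6.08, 4.68, 9.89 and 6.47 CPM in rFSTL1, and the groups overlapped. The lower ones were Lrpprc, which stabilizes mitochondrial mRNA (-0.12), Grpel2, an exchange factor of mortalin (-0.14), and the protease Yme1l1 (-0.13, and -0.08 without rFSTL1 replicate 4). Trap1, the mitochondrial HSP90, had a log2 fold change of -0.01.

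**Figure D5:**
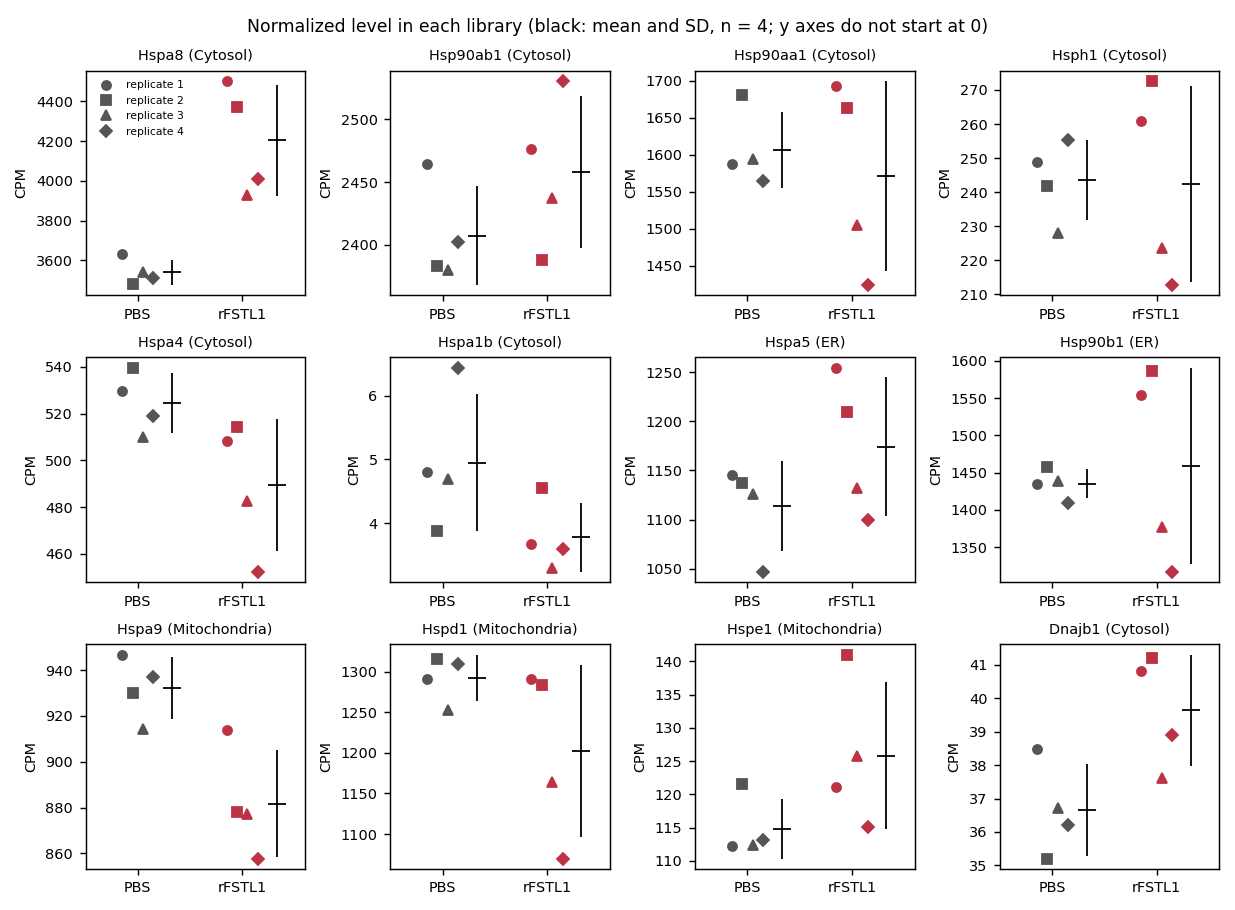
CPM of 12 chaperone genes in each of the 4 PBS (grey) and 4 rFSTL1 (red) libraries, with symbols for the replicate and the mean and SD beside them; the y axes do not start at 0. On this TMM scale only Hspa8 and Hspa9 have groups that do not overlap. In all of the drawn genes except Hsp90ab1 and Hspe1, the rFSTL1 circles and squares lie above the triangles and diamonds, narrowly so in Hspa9.

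The summed level of the members varied more among the rFSTL1 libraries than among the PBS libraries. The CPM of all tested members summed to 19729 ± 194 in PBS (1.97% of counts) and 20226 ± 934 in rFSTL1 (2.02%), and without Hspa8 to 16189 ± 180 and 16023 ± 669. For the 38 cytosolic members the sums were 13766 ± 126 and 14314 ± 576 CPM, and without Hspa8 10226 ± 110 and 10111 ± 305 CPM. What set rFSTL1 replicates 1 and 2 apart from 3 and 4 was not tested.

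The other 17 members had too few reads to be tested, with at most 11 counts in any library. Among them were heat-inducible genes: Hspa1a, and Hspb1 (HSP27), which had 5 counts over the 8 libraries. Hspb8, the partner of BAG3, had 12 counts, the testis-associated Hspa2 57, Hspb9 44 and Hspa12a 33 in all. Dnajb8 and Dnajc5g had no count. The rest were Cct6b, Cct8l1, Dnaja4, Dnajb3, Dnajb7, Dnajc5b, Dnajc6, Hspb2 and Hspb3. Under the looser filter of at least 1 count, 79 members were tested, and Hspa8 was again the only one called. At this depth a small difference in these genes could not be detected.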

How the data were processed

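Gene expression was measured by RNA-seq in 8 libraries, grouped by the treatment and numbered by the titles in the labels. The authors deposited expected counts (estimated counts per gene, not normalized). The submitters' processing notes name Bowtie2 2.2.8, HISAT2, StringTie 1.3.1 and DESeq2. The genome build and annotation are not given in the sources used here. Of the nonzero values, 13.0% were not whole, and all were rounded. The design assumed whole counts, and the same tests were used.

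Genes were filtered with filterByExpr (minimum count 10), scaled by TMM and tested by the quasi-likelihood functions of edgeR 4.0.16 under R 4.3.3. P-values were adjusted over 10748 genes by Benjamini and Hochberg's method, and the threshold was 0.05. Single genes were also tested by exact two-sided permutation on log2(CPM + 1). Scripts were tested on simulated data. The members, their compartments and the related lists were chosen with earlier results of these data known. Named genes were members with an unadjusted p under 0.05 or no overlap between groups, a list of heat-inducible and compartment-defining members, genes of the related lists with an unadjusted p under 0.05, and Hsf1, Tcp1, Trap1 and Hyou1. A member that met this rule and a marker gene are not reported here. Other genes named in the report were chosen after their values were seen, as ends of a range or as examples. Lengths and shared 50-base windows came from GENCODE transcripts, using the longest protein-coding transcript (for Cct6a the longest transcript), and promoter windows from RefSeq GRCm38.p6. The kit notes do not state strand, so reads of overlapping antisense genes could not be separated. Same-numbered libraries were not paired. Alternatives were DESeq2 1.42.0, limma 3.58.1 (voom with sample quality weights), other scalings and filters, a threshold of 0.1, a replicate block, and each library left out. Summing near-identical copies was added after the data were seen.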

Additional observations from a re-analysis of the deposited data

Results flagged for a closer look

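A single library lay far from the other 3 of its group in 3 of the 76 groups of values examined (38 named genes in PBS and rFSTL1), by Dixon's 95% limit, which chance alone exceeds in about 1 of 20 groups (3.8 of 76). Hspe1 in PBS replicate 2 was at 121.6 CPM, with the others at 112.3 to 113.1. Syvn1 was low in replicate 2 of both groups, at 28.4 CPM in PBS and 34.7 CPM in rFSTL1, with the others at 32.1 to 32.2 and 38.7 to 38.9.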

How the results depend on the processing

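Hspa8 was the 1 member called by edgeR, DESeq2, voom and the other scalings and filters, and also with a replicate block (log2 fold change 0.25, adjusted p = 0.0230 by edgeR). The block changed no call among the members, and 7 members then had an unadjusted p under 0.05. Same-numbered libraries did not deviate together (correlations -0.090, 0.085, -0.013 and 0.001). With 1 library left out at a time, 0 to 1 members were called and 2 to 10 had an unadjusted p under 0.05. The median log2 fold change then ran from -0.0284 to 0.0126 over all members and -0.0436 to 0.0058 in the cytosol. It ran from -0.0260 to 0.0376 in the ER and -0.0136 to 0.0275 in mitochondria. Voom moved the median to -0.0263 over all members and -0.0073 in the ER, and upper-quartile scaling moved that of the ER to 0.0232. With library totals alone, 6 members had groups that did not overlap (9.38%, against 8.56% of all genes). The sign turned for Dnaja1 (voom -0.0152, left-out libraries -0.0539 to 0.0916), Dnajb11 (-0.0098 to 0.0285), Dnajc3 (-0.0136 to 0.0768), Hsp90aa1 (-0.0752 to 0.0126), Hsp90b1 (voom -0.0073, left-out libraries -0.0260 to 0.0695), Hsph1 (upper-quartile 0.0033, left-out libraries -0.0752 to 0.0510) and Trap1 (voom 0.0097, upper-quartile 0.0054, left-out libraries -0.0380 to 0.0246). The cause was not tested. Over 573 refits of single genes, 536 kept direction and side of the threshold, 14 newly passed it, 4 no longer passed it and 19 turned sign. Depth limits the genes under 10 counts, and 4 libraries a group limit all differences here.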
